A study of Sus scrofa with 6 samples.

Results

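The probes for solute carrier (SLC) transporters were taken from the arrays of 2 pig muscles. A probe was included when its gene name in the files began with SLC and a digit, or when its description named a solute carrier family, and 128 of the 43603 probes met this condition. These 128 probes stood for 99 genes. Gene expression had been measured with 6 one-colour Agilent arrays, 3 for the glycolytic longissimus dorsi muscle (LDM) and 3 for the oxidative psoas major muscle (PMM). The muscles came from 3 female Landrace pigs of 210 days of age, which shared one diet from weaning on day 28 and were fasted for 24 h before slaughter. The pigs were not treated, no gene was altered, and the labels give no difference between the groups other than the muscle. The paper took both muscles from all 3 pigs for its methylation libraries and states that the 6 array samples corresponded to those. The fit without a block ignores that both muscles came from the same pigs. The labels themselves do not tie a replicate number to a pig. If the arrays of a muscle did not come from separate animals, the p-values below measure only the spread between these samples. RNA came from pieces of muscle and not from sorted cells, so that fewer cells of a type and less RNA per cell cannot be told apart.

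Solute carriers are membrane proteins that move sugars, amino acids, lactate, nucleotides, vitamins, metals and other ions across membranes, along a gradient or coupled to another ion. Skeletal muscle takes up glucose through the facilitative SLC2 family, exchanges lactate through the SLC16 monocarboxylate transporters and moves adenine nucleotides and acyl-carnitine across the inner mitochondrial membrane through the SLC25 family. Oxidative fibres are known for uptake of lactate through SLC16A1 (MCT1), and glycolytic fibres for its release through SLC16A3 (MCT4). No probe was matched here to SLC16A3, SLC25A4, SLC25A5, SLC25A20, SLC7A5 or SLC6A8, so these genes were not analysed here. SLC2A4 (GLUT4), the transporter that insulin recruits to the surface of muscle fibres, had 1 probe, which lay outside the condition for names and is described beside the glucose transporters.

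All probes on the array were 60 bases long, and 6 of them are printed because the differences described below rest on them or are seen again with them. They were read from the deposited files, in lower case and from 5′ to 3′, and in each at least 1 of the 3 forward frames is free of stop codons. The probes for SLC16A1, SLC3A1 and SLC2A5 that are printed are the dimmer probes of those genes, which carry the same gene name as the brightest probe. Whether probes of the same name read the same transcript was not tested.
SLC16A1, first dimmer probe: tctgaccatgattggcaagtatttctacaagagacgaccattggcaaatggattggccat
SLC16A1, second dimmer probe: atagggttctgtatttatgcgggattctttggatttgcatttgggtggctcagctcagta
SLC3A1, dimmer probe: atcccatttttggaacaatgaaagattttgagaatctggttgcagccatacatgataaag
SLC2A5, dimmer probe: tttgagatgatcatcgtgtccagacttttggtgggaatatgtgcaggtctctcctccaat
SLC2A7, single probe: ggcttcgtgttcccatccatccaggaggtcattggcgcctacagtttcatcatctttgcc
SLC4A7, single probe: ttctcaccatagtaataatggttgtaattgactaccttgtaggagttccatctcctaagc
None of these 6 probes shared a run of 16 bases, on either strand, with any other probe of the array.

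The name of a probe was the link between signal and gene, and it was not equally firm for all members. Of the 128 probes, 52 were named through a RefSeq accession, 5 through a gene number and 23 by the symbol in the files. The other 48 were named from the description alone. Outside the members, only the GLUT4 probe took a name that way. The named genes set beside the solute carriers below thus leave out other probes of that kind. In 38 of the 128 probes the description rested on the similarity of an assembled transcript to a protein, often of another species. Among the members named below, this applies to SLC4A7, SLC16A4, SLC20A1, SLC25A12, SLC25A16, SLC25A34, SLC31A2, SLC35E4, SLC39A2 and SLC41A1, to the brightest probes of SLC2A5, SLC2A11 and SLC12A1 and to the dimmer probe of SLC3A2.

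A spot counted as detected when the scanner software marked it as well above the background. By that measure 79 of the 128 solute carrier probes (61.7%) were detected on all 6 arrays, 27 on 1 to 5 arrays and 22 on none. Over all probes, 54.6% were detected on all 6 arrays. No solute carrier probe was detected on all 3 arrays of one muscle and on none of the other. The glucose class had the highest share detected on all 6 arrays, with 11 of 14 probes, while 16 of 26 amino acid probes, 6 of 10 mitochondrial carrier probes, 15 of 24 ion probes and 8 of 12 metal probes were so detected. Of the 5 monocarboxylate probes, the 3 detected on all 6 arrays all belonged to SLC16A1.

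**Figure D1:**
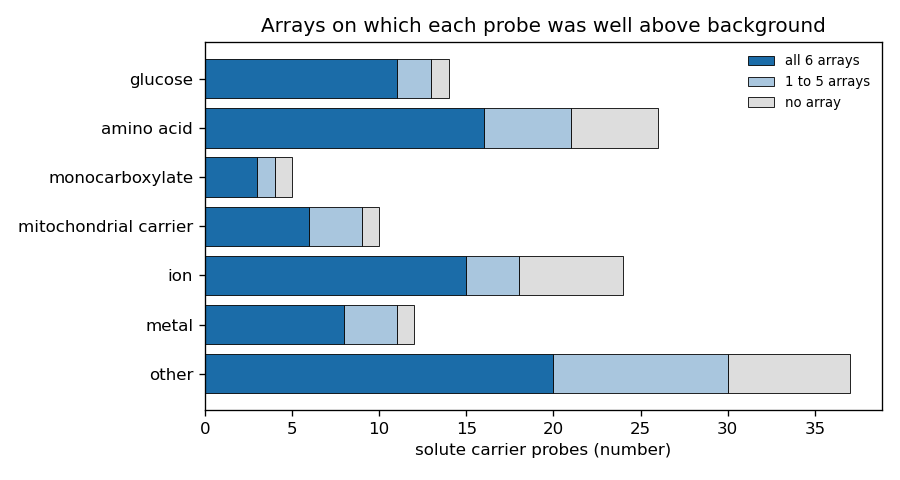
Number of solute carrier probes (horizontal axis) in each substrate class (vertical axis), split by the number of arrays on which the probe was well above background. The share detected on all 6 arrays was highest for the glucose class, with 11 of 14 probes, and the class named other held the most probes, with 37.

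The genes without signal included several that are known from epithelia or liver. SLC12A1, the sodium, potassium and chloride cotransporter of the kidney, was not well above background on any array with either of its probes, and neither were the probes for SLC2A2, the glucose transporter of liver and pancreatic islets, SLC26A3, a chloride exchanger of the gut, or SLC22A8, an organic anion transporter of the kidney. SLC16A4 and SLC20A1 were also not well above background on any of the 6 arrays. Such a value gives only an upper bound and no order between the muscles.

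Of the 41 solute carrier probes that did not enter the test, 11 were detected on a single array. On LDM replicate 1 this was so for 5 probes, whose signals there lay from 0.80 below to 0.77 above the highest signal elsewhere, and on PMM replicate 3 for 4 probes, which lay further above it. The signal of SLC7A9, a light chain of the renal cystine transporter, was 3.04 there and -6.66 at most on the other 5 arrays. Signals here and below are log2 intensities relative to the 75th percentile of the array, so that 0 is the level that the brightest probes, those above this percentile, exceed on that array. SLC41A1, a magnesium transporter, reached -2.21 on PMM replicate 3 and -6.77 at most elsewhere. The second probe of SLC7A1, a transporter of cationic amino acids, reached -0.81 on the same array and -5.44 at most elsewhere, whereas its first probe was detected on all 6 arrays, at 1.35 to 2.19 in PMM. PMM replicate 3 also had the most outlier spots, 161 against 6 to 37 on the other arrays. None of these single-array signals enters a comparison of the muscles.

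The labels name muscle, but their text on RNA extraction speaks of adipose tissue, so markers of both were read first. All 14 skeletal muscle markers with a probe were detected on all 6 arrays, and their summed log2 signal ranged from 12.7 to 13.4 in LDM and from 12.95 to 13.64 in PMM. Of 7 adipocyte markers, 6 were detected on all 6 arrays, with a summed signal of 6.32 to 7.92 in LDM and 6.41 to 8.03 in PMM. The ranges of both lists overlapped between the muscles. The 6 endothelial markers summed to 5.79 to 7.41 in LDM and 6.61 to 7.40 in PMM, and the 3 macrophage markers to 2.86 to 4.87 in LDM and 3.18 to 4.70 in PMM. All 6 endothelial markers had a higher mean in PMM, with a median log2 fold change of 0.36, and CDH5, ENG, KDR and TEK were higher there in all 3 replicate numbers, though none was called with the block over genes. No erythrocyte marker of the list had a named probe. LDM replicate 3 stood apart in genes of the liver: ALB, which encodes albumin, had a signal of 3.29 there and of -3.93 to -3.02 on the other 5 arrays, and TTR, which encodes transthyretin, was detected on that array only. The part of these cells and of these genes in the differences below was not tested.

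The comparison asked which solute carriers differed between the oxidative and the glycolytic muscle. Of the 128 probes, 87 were well above background on all 3 arrays of at least one muscle and entered the fit of all 25834 such probes. With limma and Benjamini-Hochberg adjustment, 0 of the 87 solute carrier probes were called at an adjusted p of 0.05, as were 0 of all 25834 probes (0%). At an unadjusted p under 0.05, 8 of the 87 solute carrier probes passed, beside 691 of all probes (2.67%). When each gene was represented by its brightest probe, 0 of 68 solute carrier genes and 0 of 2907 named genes (0%) were called, and 5 and 111 (3.82%) had an unadjusted p under 0.05.

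The replicate numbers were taken to pair the arrays of the muscles, and with the number as a block the fit over genes called 9 of the 68 solute carrier genes (13.2%), beside 184 of 2907 named genes (6.33%). At an unadjusted p under 0.05, 14 of the 68 and 570 of all named genes (19.6%) passed that fit. SLC16A1, SLC18A2, SLC2A7, SLC4A7, SLC3A1 and SLC45A2 rose in PMM, in a background of 117 named genes (4.02%) that did so. SLC31A2, SLC35F5 and SLC3A2 fell in PMM, in a background of 67 (2.3%). SLC2A7, SLC4A7 and SLC31A2 were named from the description alone, as none of the 2907 genes outside the solute carriers was. The 9 calls were made over genes and not in the fit over all probes with the same block. There limma called 16 of 25834 probes (0.0619%), and none of them was a solute carrier. Of the 87 solute carrier probes, 18 had an unadjusted p under 0.05 there, beside 11.2% of all probes. Normalization decided the calls as well. Over genes with the block, 8 of the 9 remained after median centring, where 165 of all genes were called, and 0 remained after quantile normalization or after normexp background correction, where limma called 0 of all genes. Leaving out replicate 1, 2 or 3 in both muscles left 3, 5 and 0 solute carriers called. Of all genes, 79 of 2935, 130 of 2913 and 0 of 3045 were then called. Over probes, 5 solute carriers were called with the block and median centring and 5 with the slide as a block, where limma called 491 and 604 of all probes. The slide block rests on replicates 2 and 3, since the arrays of replicate 1 lay on separate slides. The adjusted p values given below for the 9 genes are those of the fit over genes with the block. An SE below is that of the fit over probes without a block, unless its sentence names the block. The SEs of the 2 fits are not to be compared between genes. For SLC35F5, which was called, the SE was 0.60 without the block and 0.20 with it over genes. For SLC27A1, which was not called, it was 0.40 and 0.20. Several of the alternatives cannot change the size of a difference. The others gave 14 or 15 further estimates per gene, all of the same sign as the first for these 9 genes, but sizes moved by over 1.5 times in 6 of them when 1 array was left out, as given beside each gene.

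**Figure D2:**
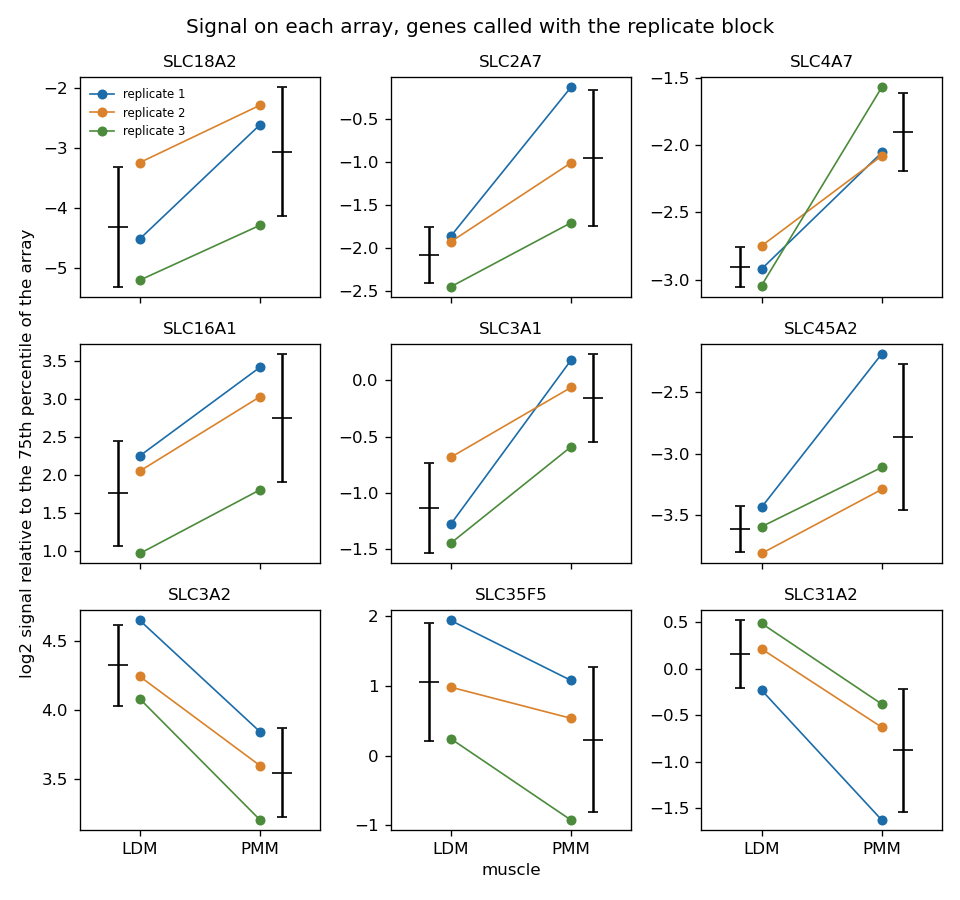
Signal of the 9 solute carriers called with the replicate block over genes, as log2 intensity relative to the 75th percentile of the array, in LDM and PMM. Each line joins the arrays of one replicate number (blue, replicate 1; orange, replicate 2; green, replicate 3), and the black bars give the mean ± SD of 3 arrays. The lines of a gene all run in 1 direction, while the SD bars of the muscles overlap for SLC16A1, SLC18A2, SLC35F5 and, slightly, SLC45A2.

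**Figure D3:**
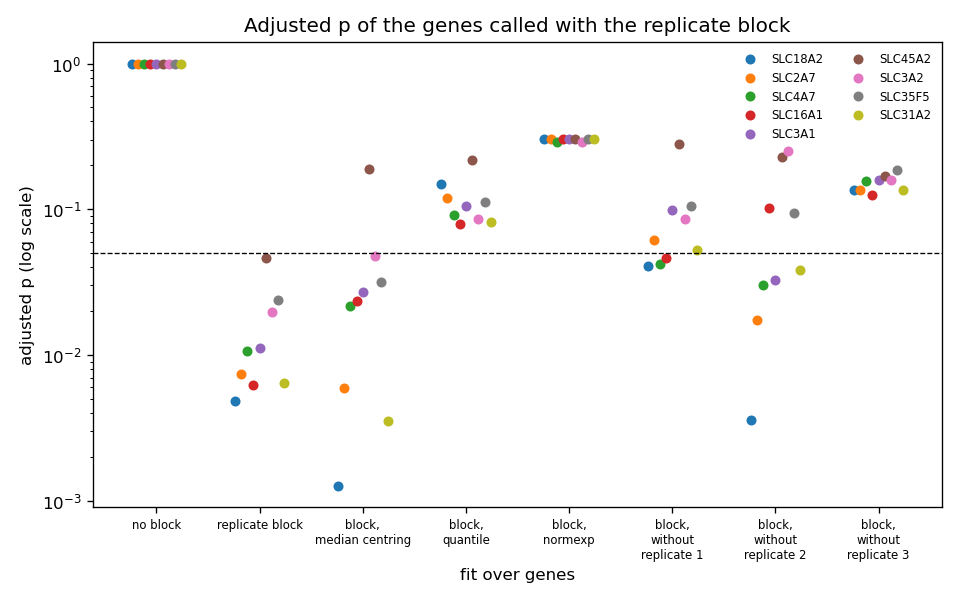
Adjusted p (log axis) of the same 9 genes in 8 fits over genes, each dot a gene, with the dashed line at 0.05. All 9 lay below the line with the replicate block, 8 with median centring in addition, and none without the block, with quantile normalization, with normexp background correction or without replicate 3.

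Over the 68 solute carrier genes tested, 32 had a higher mean in PMM and 36 a lower one, and the median log2 fold change (PMM minus LDM) was -0.02, beside 0.00 over all named genes. The median absolute log2 fold change was 0.23 for the solute carriers and 0.19 for all named genes. The arrays of the muscles did not overlap for 7 solute carriers higher in PMM (10.3%) and 3 lower in PMM (4.41%), beside 4.27% and 2.92% of all named genes. Counting only the sign, 15 solute carriers (22.1%) were higher in PMM in all 3 replicate numbers and 15 (22.1%) lower, beside 21.4% and 20.5% of all named genes.

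**Figure D4:**
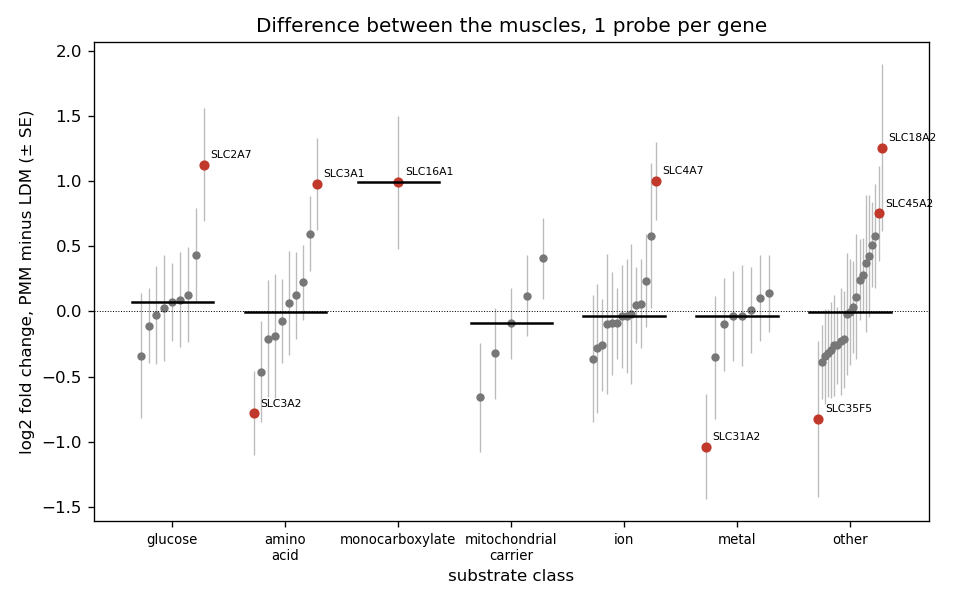
Log2 fold change between the muscles (PMM minus LDM) of the 68 solute carrier genes tested, 1 probe per gene, by substrate class. Grey bars are the SE of the fit without a block, black lines are class medians, and red points with names are the 9 genes called with the replicate block over genes. All class medians lay between -0.09 and 0.07 except that of the monocarboxylate class, which holds only SLC16A1.

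Among the monocarboxylate transporters, SLC16A1 was higher in PMM with each of its 3 probes. This gene encodes MCT1, which carries lactate and pyruvate together with a proton. Its brightest probe had signals of 2.25, 2.05 and 0.97 in LDM and 3.42, 3.03 and 1.81 in PMM, in the order of the replicate numbers. The muscles overlapped, because PMM replicate 3 was lower than LDM replicates 1 and 2, but PMM was higher within every replicate number, by 1.17, 0.98 and 0.84. The mean was 1.76 ± 0.69 (SD, n = 3) in LDM and 2.75 ± 0.84 in PMM, a 1.99-fold difference. The log2 fold change of 0.99 had an SE of 0.51 without the block and 0.18 with it, and the adjusted p of limma with the block was 0.00623. It became 0.60 without LDM replicate 3 and 0.66 without PMM replicate 1.

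The 2 dimmer SLC16A1 probes, whose sequences are printed above, gave log2 fold changes of 1.46 ± 0.62 (SE) and 0.81 ± 0.44. The first had signals of -1.22, -0.60 and -1.86 in LDM and 1.53, 0.12 and -0.96 in PMM. The second had signals of -1.23, -1.80 and -2.27 in LDM and -0.37, -0.78 and -1.73 in PMM. Both were higher in PMM within each replicate number, and neither was called over all probes with the block, where limma gave an adjusted p of 0.324 and 0.242.

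SLC16A7, which encodes the related transporter MCT2, was detected on 2 of 3 arrays of each muscle and did not enter the test. Its signals were -5.27, -4.84 and -5.54 in LDM and -3.24, -3.83 and -4.75 in PMM. The lowest value of each muscle was on replicate 3 and the values not well above background are bounds only.

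In the glucose class, 9 of 11 genes were tested, 6 with a higher and 3 with a lower mean in PMM, with a median log2 fold change of 0.07. SLC2A7 (GLUT7), known as a sugar transporter of the gut, had the largest difference among the brightest probes of the class. Its probe, printed above, had signals of -1.86, -1.92 and -2.45 in LDM and -0.13, -1.01 and -1.70 in PMM. The muscles did not overlap. With the block over genes its log2 fold change was 1.13 ± 0.22 (SE), a 2.19-fold difference, and the adjusted p of limma was 0.00740. Without PMM replicate 1 it became 0.72.

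SLC2A1 (GLUT1), the transporter of basal glucose uptake, was detected on all 6 arrays. Its signals of -3.25, -3.95 and -2.54 in LDM and -3.23, -3.49 and -2.92 in PMM overlapped, and the log2 fold change was 0.03 ± 0.41 (SE). The sign of this value turned with quantile normalization or median centring, so no direction is given. SLC2A3 (GLUT3), a glucose transporter best known from neurons, had a log2 fold change of 0.13 ± 0.36, and SLC5A4, a sodium-coupled relative of the intestinal glucose transporter, one of 0.44 ± 0.36. Neither was called in any fit described here. With the block over genes the SE was 0.18 for SLC2A3 and 0.19 for SLC5A4. SLC2A8, SLC2A10 and SLC2A11 were detected on all 6 arrays, with log2 fold changes of -0.11, 0.09 and -0.03.

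The GLUT4 probe outside the condition for names had signals of -4.07, -4.06 and -6.25 in LDM and -3.13, -3.58 and -5.15 in PMM. It was well above background on 2 of 3 arrays of each muscle and was therefore not tested. PMM was higher within each replicate number, by 0.95, 0.48 and 1.09, with replicate 3 resting on values near the background.

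SLC2A5, which encodes the fructose transporter GLUT5, gave opposite signs with its 2 probes. The brightest probe had signals of 0.01, 0.26 and 0.26 in LDM and -1.22, -0.03 and 0.75 in PMM, with overlap and a log2 fold change of -0.34 ± 0.48 (SE). The dimmer probe, printed above, had signals of -3.43, -4.33 and -4.69 in LDM and -1.22, -3.11 and -3.34 in PMM, and was detected on 2 of 3 LDM arrays. There the muscles did not overlap and the log2 fold change was 1.59 ± 0.60. It was called over probes with the slide as a block and with the replicate block and median centring, and not in the other fits over probes. No direction can be given for the gene.

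In the amino acid class, 10 of 15 genes were tested, 5 with a higher and 5 with a lower mean in PMM, with a median log2 fold change of -0.01. The 2 heavy chains that escort amino acid exchangers to the membrane differed in opposite directions with their brightest probes. SLC3A1 encodes rBAT, known from the kidney and gut, where it pairs with a light chain for cystine and dibasic amino acids. Its brightest probe had signals of -1.28, -0.68 and -1.45 in LDM and 0.18, -0.06 and -0.59 in PMM, with no overlap. With the block over genes it differed by 0.98 ± 0.21 (SE) on the log2 scale, a 1.97-fold difference, with an adjusted p of limma of 0.0112. The dimmer SLC3A1 probe had signals of -4.99, -4.21 and -5.20 in LDM, where it was detected on 2 of 3 arrays. In PMM they were -2.94, -3.19 and -4.10, again with no overlap. Its log2 fold change was 1.39, with an SE of 0.42 without the block and 0.25 with it over all probes.

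SLC3A2 encodes CD98 (4F2hc), the heavy chain of the leucine exchangers of most cells. Its brightest probe had signals of 4.65, 4.25 and 4.08 in LDM and 3.84, 3.59 and 3.20 in PMM. PMM was lower within each replicate number, by 0.81, 0.65 and 0.88, and the muscles did not overlap. The log2 fold change of -0.78 ± 0.18 (SE, block over genes) corresponds to 1.72-fold more signal in LDM, with an adjusted p of limma of 0.0198. In the dimmer probe the log2 fold change was 0.03, with an SE of 0.47 without the block and 0.20 with it over all probes. Its signals overlapped, at -1.02, -0.24 and -0.12 in LDM and -1.34, -0.18 and 0.25 in PMM.

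SLC38A2 (SNAT2), the sodium-coupled carrier of alanine, glutamine and other small neutral amino acids, had 3 probes with nearly the same difference. The brightest had signals of 4.67, 4.99 and 4.96 in LDM and 5.61, 5.48 and 5.32 in PMM, with no overlap. The log2 fold changes of the 3 probes were 0.60 ± 0.28, 0.60 ± 0.42 and 0.55 ± 0.40 (SE). None was called. With the block over genes the SE of the brightest probe was 0.19 and limma gave an adjusted p of 0.0933. SLC1A5, a glutamine exchanger, and SLC7A2, a carrier of arginine and lysine, were detected on all 6 arrays, with log2 fold changes of -0.21 ± 0.45 and -0.46 ± 0.39 that were not called.

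**Figure D5:**
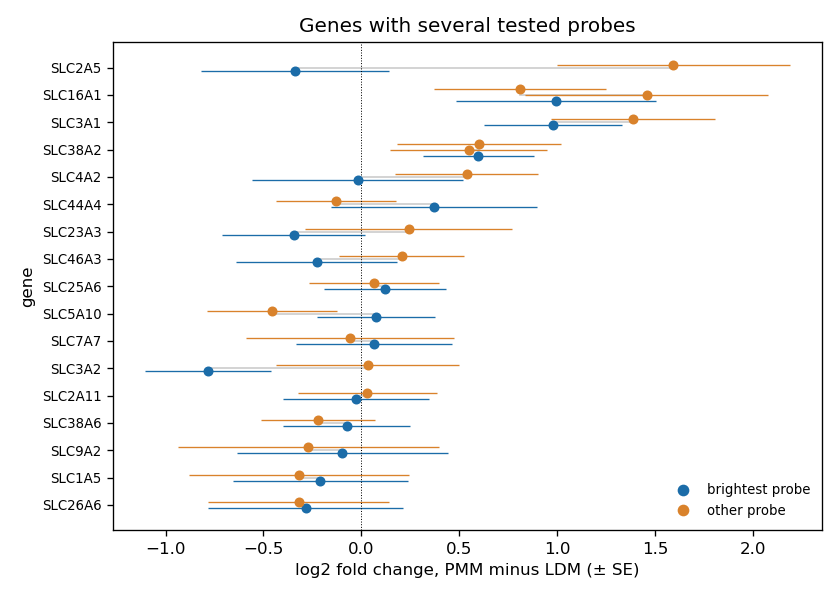
Log2 fold change between the muscles (PMM minus LDM, ± SE, fit without a block) of each tested probe of the 17 solute carriers with several tested probes. Blue points are the brightest probe of a gene and orange points the others. In 8 genes all probes had the same sign, among them SLC16A1, SLC3A1 and SLC38A2, and in 9 genes the signs differed, most widely in SLC2A5.

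Of the 17 solute carriers with several tested probes, 8 had the same sign with all of them and 9 had both signs. Where the difference of the brightest probe was over 0.5 in size, the other probes had the same sign in SLC16A1, SLC3A1 and SLC38A2 and another sign in SLC3A2. In most of the others both values were smaller than their SE. A pair of SLC44A4 probes shared a run of 55 bases and are not independent.

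Among the mitochondrial carriers, 5 of 9 genes were tested, 2 with a higher and 3 with a lower mean in PMM, and none was called in any fit. SLC25A6 encodes ANT3, an adenine nucleotide translocator that exchanges ADP for ATP. Its brightest probe had signals of 7.52, 7.41 and 8.12 in LDM and 7.86, 7.70 and 7.84 in PMM, which overlapped, with a log2 fold change of 0.12 ± 0.31 (SE). That sign turned with normexp background correction, to -0.21. SLC25A34, an orphan carrier, had signals of 0.88, 1.62 and 1.01 in LDM and -0.29, 0.96 and 0.86 in PMM. It was lower in PMM within each replicate number, and with the block over genes its log2 fold change of -0.66 ± 0.21 had an adjusted p of 0.0943 by limma. SLC25A21, the oxodicarboxylate carrier, had a log2 fold change of 0.41 and SLC25A16, a carrier linked to coenzyme A, one of -0.32. Their SE was 0.31 and 0.35 without the block, and 0.20 and 0.21 with it over genes. SLC25A12, the aspartate and glutamate carrier of the malate shuttle, was detected on 2 of 3 arrays of each muscle and was not tested.

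In the ion class, 14 of 20 genes were tested, 5 with a higher and 9 with a lower mean in PMM, with a median log2 fold change of -0.04. SLC4A7 (NBCn1), which brings sodium and bicarbonate into the cell, was the gene that stood out. Its probe, printed above, had signals of -2.92, -2.75 and -3.04 in LDM and -2.06, -2.08 and -1.57 in PMM, with no overlap. With the block over genes its log2 fold change was 1.001 ± 0.20 (SE), a 2.002-fold difference, with an adjusted p of limma of 0.0107. SLC4A4 (NBCe1), another sodium bicarbonate cotransporter, had a log2 fold change of -0.36, and its sign turned with normexp background correction. Its SE was 0.49 without the block and 0.19 with it over genes. SLC4A2, a chloride and bicarbonate exchanger, had a log2 fold change of -0.02 with its brightest probe. The SE of SLC4A2 was 0.54 without the block and 0.19 with it over genes.

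SLC8A1 (NCX1), the sodium and calcium exchanger of heart and muscle, had signals of -5.09, -2.92 and -3.09 in LDM and -3.33, -3.07 and -2.96 in PMM. LDM replicate 1 was low, and the other values of both muscles overlapped. Its log2 fold change was 0.58 ± 0.56 (SE) and became -0.12 without LDM replicate 1. SLC26A6, an anion exchanger, had a log2 fold change of -0.28 ± 0.50. SLC9A3R1 belongs to the class by its family number, but its product is a scaffold that binds transporters and carries nothing itself, and its log2 fold change was -0.09 ± 0.28.

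Of the 11 metal transporter genes, 8 were tested and SLC31A2 was the one called with the block over genes. It encodes CTR2, a copper transporter of low affinity. Its signals were -0.23, 0.22 and 0.49 in LDM and -1.63, -0.63 and -0.38 in PMM, so that every PMM value lay below every LDM value. The log2 fold change of -1.04 ± 0.19 (SE, block over genes) corresponds to 2.05-fold more signal in LDM, with an adjusted p of limma of 0.00643. It became -0.66 without PMM replicate 1 and -0.52 with normexp background correction. The other 7 metal transporters lay between -0.35 and 0.14. They included SLC11A1 (NRAMP1), a divalent metal transporter of macrophages, at -0.35, the zinc exporter SLC30A1 at 0.10 and the zinc importer SLC39A2 at 0.14. Their SE was 0.22, 0.23 and 0.19 with the block over genes, and 0.47, 0.33 and 0.30 without it. The signs of these 3 turned with at least one alternative setting.

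The class named other held 30 genes, of which 21 were tested, 10 with a higher and 11 with a lower mean in PMM. SLC18A2 (VMAT2), which loads monoamines into vesicles, had the largest difference among the brightest probes of all solute carriers tested. Its signals were -4.52, -3.25 and -5.21 in LDM, where it was detected on 2 of 3 arrays, and -2.62, -2.29 and -4.29 in PMM. The muscles overlapped, but PMM was higher within each replicate number, by 1.90, 0.96 and 0.91. That gave a log2 fold change of 1.26 ± 0.22 (SE) with the block over genes, a 2.39-fold difference, with an adjusted p of limma of 0.00482. Without LDM replicate 3 it became 0.82.

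SLC45A2 (MATP), known as a transporter of pigment cells, had signals of -3.44, -3.81 and -3.60 in LDM and -2.19, -3.29 and -3.11 in PMM, with no overlap. Its log2 fold change of 0.75 ± 0.21 (SE) had an adjusted p of limma of 0.0465 with the block over genes and of 0.188 with median centring in addition. Without PMM replicate 1 it became 0.41. SLC35F5, an orphan member of the nucleotide sugar transporter family, had signals of 1.94, 0.98 and 0.24 in LDM and 1.08, 0.54 and -0.92 in PMM. The muscles overlapped, and the log2 fold change of -0.82 ± 0.20 had an adjusted p of limma of 0.0239 with the block over genes. Its size rested on single arrays, since it became -0.25 when PMM replicate 3 was left out, -0.38 when LDM replicate 1 was and -1.25 when PMM replicate 1 was.

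SLC27A1 (FATP1), which takes up long-chain fatty acids in muscle and fat, had signals of 1.99, 1.31 and 1.66 in LDM and 2.99, 1.85 and 1.87 in PMM. PMM was higher within each replicate number, with overlap between the muscles, and the log2 fold change of 0.58 ± 0.40 (SE) was not called in any fit. SLC35E4, another orphan of the SLC35 family, did not overlap, at 1.90 to 2.02 in LDM and 2.19 to 3.01 in PMM. Its log2 fold change of 0.51 ± 0.33 was likewise not called. With the block over genes the SE was 0.20 for SLC27A1 and 0.22 for SLC35E4.

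Genes that work beside the transporters were read from lists of 12 genes each, of which only those with a named probe could be used. Of all named genes, 4.02% rose and 2.3% fell in PMM in the fit over genes with the block. Of 6 genes of glucose and lactate handling, 1 rose in PMM in the fit over genes with the block and none fell. This was LDHB, the lactate dehydrogenase subunit of oxidative tissues, with signals of 6.10, 6.26 and 5.82 in LDM and 7.72, 7.10 and 6.59 in PMM and a log2 fold change of 1.08, with an adjusted p of limma of 0.00801. Of 9 mitochondrial membrane genes, 8 had a higher mean in PMM and 1 rose in the same fit. That gene was CPT1B, the muscle carnitine palmitoyltransferase, at 4.001, 3.21 and 3.32 in LDM and 5.49, 4.02 and 4.50 in PMM, with a log2 fold change of 1.16 and an adjusted p of limma of 0.00415.

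Of 2 genes of insulin signalling and the GLUT4 vesicle, 1 fell in PMM with the block over genes. This was the insulin receptor INSR, with a log2 fold change of -0.70 and an adjusted p of limma of 0.0361. None of 3 amino acid sensing genes and none of 6 ion pumps and pH partners was called. Among the markers, the slow fibre genes MB and TNNI1 rose in PMM in that fit, with log2 fold changes of 1.48 and 1.05. Their adjusted p of limma was 0.00552 and 0.0115. The slow fibre genes MYH7 and TNNT1 were not called, with log2 fold changes of 0.48 and 0.28 and an adjusted p of limma of 0.161 and 0.479. No fast fibre gene of the list was called in either direction. TNNT3, MYH2 and MYH1 had log2 fold changes of 0.42, 0.51 and 0.10. Those of TNNC2, MYLPF, TNNI2 and MYH4 were 0.006, -0.05, -0.08 and -0.09. Of the adipocyte markers, CIDEC and PLIN1 fell in PMM and LPL, which muscle fibres also express, rose. Over probes or genes, the fits with the 75th percentile and no block called no gene of these lists.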

How the data were processed

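RNA of 3 LDM and 3 PMM samples was labelled with Cy3. The authors deposited linear spot intensities from Agilent Feature Extraction 10.5.1.1, background-subtracted and not normalized between arrays. The series table holds the same intensities within 0.005 units. Per array, 25630 to 31707 spots were well above background, and none was saturated. The number of arrays limits the precision.

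Control spots and outlier spots (6 to 161 per array) were left out, repeated spots averaged, and the 75th percentile of each array was subtracted from its log2 intensities. A probe was tested when it was well above background on all 3 arrays of either muscle, with at least 2 values in each. Probes took their names from RefSeq (Sscrofa11.1, by accession or gene number), then from the symbol in the files. A description alone gave a name only to solute carriers and to the GLUT4 probe. Substrate classes followed family and member numbers.

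The test was that of limma 3.58.1 (R 4.3.3), two-sided, with Benjamini-Hochberg adjustment over all probes or, with the brightest probe, over all genes. The fit was tested on simulated data. It estimated the added changes closely, but over probes it called none of those of 1 on the log2 scale, with or without the block. Larger changes were called more often with moderated variances in the simulation, a setting adopted after the first gave no calls. Some unchanged probes were called there too. Noise was drawn for each array on its own, without pairs, so the simulation cannot show what the block does in paired arrays. The fit over genes was not simulated. Deviations from the muscle mean correlated at 0.616, 0.697 and 0.560 between arrays of the same replicate number and from -0.536 to -0.0106 between different numbers. The deviations of a probe cancel out within a muscle, so positive values at the same number force negative values between different numbers. The contrast is thus partly fixed in advance. The numbers were taken as pairs from these same data. They coincide with the scan and, for replicates 2 and 3, with the slide. Neither can be told apart from the replicate number there. The study took both muscles from each pig.

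Genes were named when they belonged to a list of transporters known from muscle, were among the 4 with the largest absolute change of a class, or were called in the fit over probes or genes, with or without the block. SLC2A8, SLC2A10, SLC2A11, SLC1A5, SLC4A2, SLC9A3R1, SLC25A12 and the genes without signal were added after their values were seen. The members, lists and tests were chosen with earlier results of these data known. Alternatives were another normalization, background correction or filter, blocks, and single arrays left out.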

Additional observations from a re-analysis of the deposited data

How the results depend on the processing

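Without a block limma called 0 of 25834 probes, and 7 with quantile normalization, 9 with median centring, 3 with normexp background correction and 0 to 1 with single arrays left out. None of these was a solute carrier. With a replicate block the count was 16 over probes, 184 over genes, 491 over probes with median centring and 165 over genes with median centring, and with the slide as a block it was 604. The solute carriers among them were 0, 9, 5, 8 and 5. Leaving out both arrays of replicate 1 or 2 in the fit over genes with the replicate block left 79 and 130 calls in all, with 3 and 5 solute carriers, and leaving out replicate 3 left 0. With the replicate block, quantile normalization gave 0 calls over probes and over genes, and normexp background correction 0 over genes. The causes of these differences were not tested. The counts thus differed with the block, the normalization, the set of features and the arrays, and no solute carrier was called in every fit. Detection filters, the percentile over detected probes, outlier spots and the series table were tried in the fit over probes without a block only, where the count stayed at 0.

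Normexp background correction moved the median log2 fold change of all probes from -0.03 to 0.19. The class medians of log2 fold changes moved by more than the spread between replicate numbers with normexp background correction, to 0.67 for monocarboxylate, 0.048 for mitochondrial carrier, 0.29 for ion and 0.24 for metal genes. With single arrays left out they ranged from -0.052 to 0.21 for glucose and -0.18 to 0.10 for metal genes. They ranged from 0.66 to 1.58 for monocarboxylate and -0.11 to 0.083 for mitochondrial carrier genes. The upper ends of these last classes held 2 and 6 genes instead of 1 and 5, because the detection filter was applied again. SLC16A1 alone ranged from 0.60 to 1.47. In the fit over genes with the replicate block, the glucose median was -0.034 without replicate 2 and 0.17 without replicate 3. Without replicate 3 the monocarboxylate median was 1.30, over 2 genes, and the mitochondrial carrier median 0.12, over 6. SLC16A1 alone was then 1.07.

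Of the 27 named genes tested, 16 kept their sign under every alternative. SLC2A1 turned to -0.024 with quantile normalization, -0.042 with median centring and -0.19 without replicate 2 under the block. SLC2A5 turned to 0.11 with the slide as a block or without replicate 1 under the replicate block, and to 0.63 as the mean of its probes. SLC8A1 and SLC30A1 turned to -0.012 and -0.23 with the slide as a block or without replicate 1 under the replicate block, and SLC39A2 to -0.0011 without replicate 2 under that block. Normexp background correction turned SLC4A4 to 0.24, SLC11A1 to 0.46, SLC25A16 to 0.60 and SLC25A6 to -0.21. With single arrays left out, log2 fold changes ranged from -0.32 to 0.38 for SLC2A1, -0.13 to 0.34 for SLC2A3, -0.80 to 0.19 for SLC2A5, -0.67 to 0.17 for SLC26A6, -0.80 to 0.0095 for SLC4A4, -0.12 to 0.97 for SLC8A1, -0.73 to 0.047 for SLC11A1, -0.15 to 0.30 for SLC30A1, -0.040 to 0.23 for SLC39A2 and -0.016 to 0.34 for SLC25A6. With 3 arrays per muscle taken as unpaired, exact permutation cannot give a p below 0.1. For arrays taken as 3 pairs, as in the replicate block, that limit is higher still. A probe near the background gives a bound only.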
